A study of Homo sapiens with 9 samples.

Results

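The 42 genes described here are genes that the EWSR1-FLI1 fusion of Ewing sarcoma is known to repress, genes of the epithelial to mesenchymal transition, and genes of the extracellular matrix with the proteases that cut it and their inhibitors. They were chosen by gene symbol: 15 fusion-repressed genes, 10 transition genes, 12 matrix genes, and 5 metalloproteinases and inhibitors. All 42 have a row in the count table, among 34830 rows that name a gene, and 36 of them were among the 17042 genes with enough counts to test. The cells were of TC71, a human Ewing sarcoma line, so every library was from 1 line. They were implanted in Matrigel beneath the flank skin of NSG mice, a strain that lacks mature lymphocytes, and tumour cells were later sorted by flow cytometry from bone marrow, from lung and from the primary tumour. There were 4 bone marrow libraries and 4 lung libraries of metastatic cells, and 1 library of the primary tumour. All had the same implanted line and host, and none had a drug or an engineered allele named in the labels. The labels do not tie the libraries to mice, so a p-value here reflects the spread among libraries, which may be technical, and the primary tumour has no replicate.

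As background, EWSR1-FLI1 joins a transcriptional activation domain to the DNA-binding domain of FLI1, an ETS factor whose sites have the core GGAA. It activates some genes and lowers others, and many of the lowered genes serve adhesion, the actin cytoskeleton and the matrix. In cultured Ewing cells, low fusion activity goes with a more mesenchymal, migratory state. The transition factors of the SNAI, TWIST and ZEB families repress CDH1, the epithelial cadherin, and mesenchymal cells carry vimentin, N-cadherin and fibronectin. Fibrillar collagens are made as triple helices, leucine-rich proteoglycans such as lumican, decorin and biglycan coat their fibrils, and metalloproteinases, held back by TIMP proteins, degrade them.

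The total of estimated counts ranged from 11550045 to 17911515 over the libraries, the bone marrow libraries holding at least 14159456, the lung libraries at most 13219016 and the primary library 12354111. Levels are CPM, counts scaled to the library total, after TMM scaling, and 3 counts, used here as the limit of detection that a count of 0 allows, correspond to between 0.183 and 0.254 CPM. Errors of levels are SDs over 4 libraries, and errors of log2 fold changes are standard errors. The Ewing sarcoma markers CD99 and STEAP1 were at 299 CPM or more in every library, and the 8 markers summed to 1410 to 1740 CPM in bone marrow, 1690 to 2100 CPM in lung, against 2000 CPM in the primary library. FLI1 itself was at 0.764 CPM or less in every library, so that the level of the fusion could not be read from it. Of 6 endothelial markers, CDH5 was at 22.1 CPM or more in every library, VWF was at 0 in all 8 metastasis libraries and KDR at 0.141 CPM or less, and the list summed to 23.7 to 28.8 CPM in bone marrow, against 25.6 to 30.6 CPM in lung. The 6 leukocyte markers summed to 2.93 to 11.5 CPM in bone marrow, against 2.47 to 41.7 CPM in lung, with CD3E at 0.0828 CPM or less. Of these, CD68 was 0.444 CPM or less in bone marrow, against 0.994 to 20.9 CPM in lung. In the other direction, 1 of the 4 tested leukocyte markers was above every lung library in each bone marrow library. The 5 red cell markers summed to 15.3 to 98.7 CPM in bone marrow, against 0.363 to 159 CPM in lung. The 6 lung epithelium markers summed to 21.3 to 87.6 CPM in bone marrow, against 14.8 to 128 CPM in lung. SCGB1A1 was at 0 throughout and SFTPC at 0.745 CPM or less, so nearly all of each sum came from other epithelium markers. The levels of those others are not given here, and the low levels of SCGB1A1 and SFTPC do not describe the whole list. The 6 marrow stroma markers summed to 7.44 to 27.4 CPM in bone marrow, against 9.11 to 21.7 CPM in lung. BGLAP was at 0 throughout, and the levels of the other stroma markers are not given either. The 3 tested lung epithelium markers, NKX2-1, SFTPB and EPCAM, were all lower in bone marrow than in lung, with 0 at an unadjusted edgeR p below 0.05. Of the 4 tested marrow stroma markers, 2 were higher and 2 lower in bone marrow. ALPL, 1 of the higher, was at such a p, as were 10.2% of all tested genes. The share of reads assigned to mitochondrial ribosomal RNA was 0.0956 to 0.218% in bone marrow, 0.359 to 0.491% in lung and 0.057% in the primary library. The share assigned to human was 77.6 to 79.1% in bone marrow, 72.7 to 77.3% in lung and 78.1% in the primary library. The share assigned to mouse was 7.35 to 7.75% in bone marrow, 7.0 to 8.09% in lung and 7.45% in the primary library. Whether such reads came from host cells was not tested. The part of these differences in the results below was not tested.

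Most of the genes were present and a few were not. At least 1 count was found in all 9 libraries for 27 of the 42 genes, and more than 3 counts in all 9 for 22. BGN, which encodes biglycan, was at 0 in every library, and TWIST2 never held more than 3 counts. The 6 genes too low to test were these 2 and TAGLN, COL6A1, COL6A3 and POSTN. Of the 36 tested genes, 35 had passed the filter through at least 3 libraries and MMP9 through bone marrow replicate 3 alone.

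Bone marrow was compared with lung to ask how the genes differ between 2 metastatic sites. None of the 36 tested genes was called by edgeR, where 1 of 17042 genes was called (0.00587%), and none by limma voom, which called 6 genes (0.0352%). DESeq2 on the same counts called 4 of the 34 genes to which it gave an adjusted p, ZEB1 and COL1A2 as higher in bone marrow and NT5E and TWIST1 as lower, where it called 468 of 13847 genes (3.38%). At an unadjusted edgeR p below 0.05 there were 5 of 36, against 10.2% of all tested genes. Of these, NT5E and MMP2 had passed the filter through lung and primary libraries alone, and COL1A2 through bone marrow libraries alone. They were tested because of the groups in which they were high, so these counts are no independent support for a difference between sites. The fitted difference was below 0 for 23 of the 36, against 49.9% of all tested genes, and its median was a log2 fold change of -0.23, against 0.00 over all tested genes. Bone marrow lay above lung in every library for 2 of the 36, against 2.82% of all genes, and lung above bone marrow for 1, against 3.06%. In sorted bulk samples, fewer cells with a transcript and less of it per cell cannot be told apart. The biological coefficient of variation between libraries, over all genes, was 0.925.

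The comparison of the 8 metastasis libraries with the primary library asked whether that library lay outside their spread. No gene of the 36 was called by edgeR, which called 0 of 17042 genes (0.0%) with 817 genes at an unadjusted p below 0.05 (4.79%), and 4 of the 36 were at such a p. DESeq2 called none of 34 of the genes where it called 97 of 13553 (0.716%), and limma voom none of 36 where it called 48 (0.282%). The primary library was above all 8 metastasis libraries for 11 of the 36 genes, against 10.1% of all tested genes, and below all 8 for 0 of the 36, against 7.56%. The fitted difference was below 0, lower in metastases, for 25 of the 36, against 42.5% of all tested genes, with a median log2 fold change of -0.49, against 0.17. These counts describe 1 primary library and have no replicate check.

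**Figure D1:**
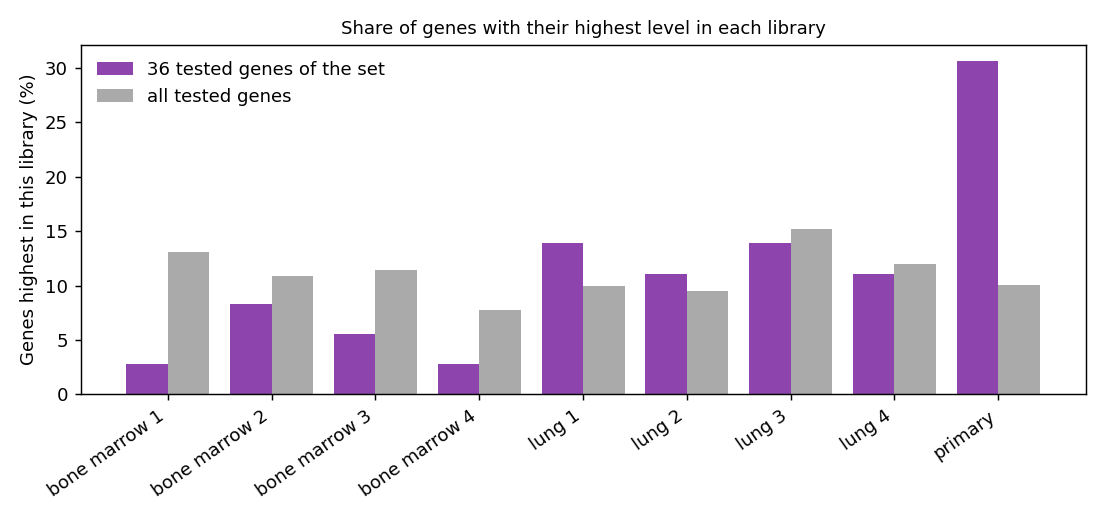
Share of genes, in percent, whose highest level of the 9 libraries was in the library named on the horizontal axis, for the 36 tested genes (purple) and all 17042 tested genes (grey). The primary library held the highest level of 30.6% of the 36 genes and 10.1% of all genes, and bone marrow libraries held 2.78 to 8.33% each.

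The 11 genes that were highest in the primary library were PHLDA1, NT5E, TNC, ZYX, CALD1, IL6ST, VIM, FN1, COL1A1, COL5A1 and SPARC. The first 6 named are fusion-repressed genes, of 14 tested. The others are 2 of 9 tested transition genes and 3 of 8 tested matrix genes, with 0 of 5 proteases and inhibitors. The share over all tested genes was 10.1%. Among the 29 tested genes with a single lowest library, the primary library was the lowest for 0, against 9.48% of all genes with a single lowest library. Bone marrow replicate 3 was the lowest for 6 of the 29 (20.7%, against 13.4% of all genes), bone marrow replicate 1 for 5 (17.2%, against 9.66%), and lung replicate 1 likewise for 5 (17.2%, against 9.88%).

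Among the 15 fusion-repressed genes, 14 were tested, and 11 of these had a fitted difference below 0 and 3 above 0 in bone marrow relative to lung, with a median log2 fold change of -0.56. Relative to the primary library 10 of the 14 were lower in metastases and 4 higher, with a median of -0.40. The most abundant, in CPM and per kilobase of transcript, was ANXA2, a calcium-dependent membrane-binding protein of the annexin family (chromosome 15, 60347134 to 60402883, minus strand, GENCODE 29 on hg38). It held 343, 708, 885 and 562 CPM in the 4 bone marrow libraries, 594, 950, 648 and 892 CPM in the 4 lung libraries, and 725 CPM in the primary library. ANXA2 has near-identical pseudogenes, and the division of reads among them could not be checked here. The sites overlapped, with a log2 fold change of -0.30 ± 0.30 (SE; edgeR adjusted p = 0.753) for bone marrow over lung and -0.06 ± 0.44 (edgeR adjusted p = 1.00) for metastases over primary.

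**Figure D2:**
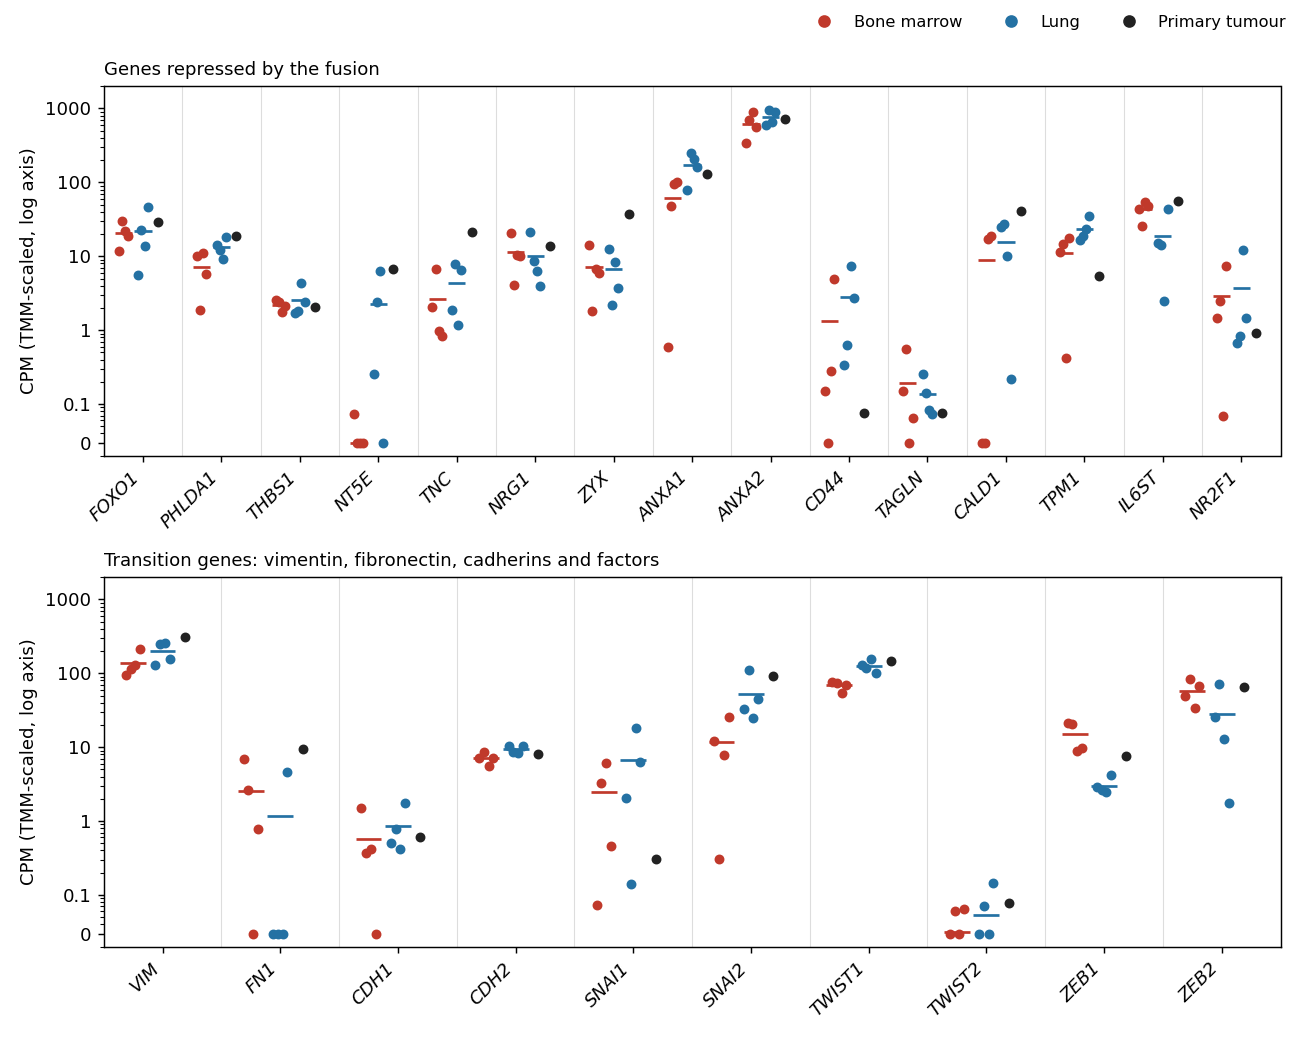
Level in CPM (TMM-scaled, log axis) of the 15 fusion-repressed genes (top) and the 10 transition genes (bottom) in 4 bone marrow libraries (red), 4 lung libraries (blue) and the primary library (black). Each point is a library, short lines are means over 4 libraries, and values at or below 0.03 CPM are drawn at the mark 0. ZEB1 was at 8.83 CPM or more in every bone marrow library and at 4.14 CPM or less in every lung library.

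NT5E, which encodes the surface ecto-enzyme CD73 that makes adenosine (chromosome 6, 85449584 to 85495791, plus strand), was nearly absent from bone marrow. It held 1, 0, 0 and 0 counts in bone marrow libraries, 3, 34, 77 and 0 counts in lung libraries and 87 counts in the primary library, or 6.67 CPM. The primary library was above all 8 metastasis libraries, and lung replicate 4 had none, like 3 bone marrow libraries. Summed over libraries, bone marrow had 0.00763 times the lung level, with an exact 95% interval for counting error alone of 0.000191 to 0.0433. The edgeR log2 fold change was -6.42 ± 1.89 (SE; adjusted p = 0.391), between -7.94 without bone marrow replicate 1 and -5.08 without lung replicate 3, and DESeq2 gave an adjusted p of 0.0325. It passed the filter through lung replicates 2 and 3 and the primary library alone, and with bone marrow near 0 its fitted value depends on the prior count. The log2 fold change of metastases over primary was -4.77 ± 1.62, with an edgeR adjusted p of 0.899, and was -5.61 without bone marrow replicate 1 and -5.49 without lung replicate 3.

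TNC, which encodes tenascin-C, a matrix glycoprotein of remodelling tissue (chromosome 9, 115019578 to 115118257, minus strand), had 2.07, 6.65, 0.973 and 0.847 CPM in bone marrow libraries, 1.87, 7.96, 1.16 and 6.61 CPM in lung libraries, against 21.3 CPM in the primary library. The sites overlapped (log2 fold change -0.74 ± 0.90, edgeR adjusted p = 0.821) and the primary library was above all 8, with a log2 fold change of -2.64 ± 1.08 for metastases over primary and an edgeR adjusted p of 1.00. ZYX, the focal adhesion protein zyxin (chromosome 7, 143381080 to 143391111, plus strand), had 14.4, 1.83, 6.67 and 6.0 CPM in bone marrow libraries, 12.4, 2.18, 8.28 and 3.70 CPM in lung libraries, against 37.1 CPM in the primary library. Its sites overlapped too, at a log2 fold change of 0.12 ± 0.76 and an edgeR adjusted p of 0.972, and the difference to primary was -2.42 ± 0.93, with an adjusted p of 0.968. Both had an unadjusted p below 0.05 in the second comparison and no call.

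PHLDA1, IL6ST and CALD1 were also highest in the primary library. PHLDA1, a pleckstrin homology-like protein, had 10.2, 1.89, 11 and 5.73 CPM in bone marrow libraries, 14.1, 12.3, 9.11 and 18.5 CPM in lung libraries and 19.0 CPM in primary, with a log2 fold change of -0.90 ± 0.61 between sites and -0.95 ± 0.83 against primary (edgeR adjusted p 0.616 and 1.00). IL6ST, the shared receptor chain gp130 of the interleukin-6 family, had 44.0, 25.7, 55.0 and 48.4 CPM in bone marrow libraries, 14.9, 14.2, 2.48 and 43.4 CPM in lung libraries and 55.5 CPM in primary. It was among the 3 genes of this group with a fitted difference above 0, at 1.21 ± 0.72 (edgeR adjusted p = 0.552), and against primary it was at -0.96 ± 0.97 (1.00). The sites overlapped through lung replicate 4, which at 43.4 CPM exceeded bone marrow replicate 2. CALD1, the actin-binding protein caldesmon, had 0, 0, 17.0 and 18.8 CPM in bone marrow libraries, 25.0, 27.1, 10.2 and 0.218 CPM in lung libraries and 40.8 CPM in primary, with log2 fold changes of -0.81 ± 1.80 and -1.79 ± 2.29 (edgeR adjusted p 0.915 and 1.00). Limma voom gave -3.61 for CALD1 against primary (adjusted p = 0.953). Its level was thus at the limit of detection in 3 metastasis libraries, 2 of bone marrow and 1 of lung, and above 10 CPM in the rest.

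Of the remaining fusion-repressed genes, ANXA1, the anti-inflammatory annexin, had 0.592, 47.8, 94.0 and 102 CPM in bone marrow libraries, against 79.5, 247, 207 and 159 CPM in lung libraries, with 131 CPM in primary. The other bone marrow libraries were of the order of lung replicate 1, while bone marrow replicate 1 was far lower. TPM1, a tropomyosin of actin filaments, had 0.417 CPM in bone marrow replicate 3, against 11.3 to 17.9 CPM in the other 3 bone marrow libraries, 16.8 to 35 CPM in lung and 5.45 CPM in primary. FOXO1, a transcription factor downstream of insulin signalling, averaged 20.6 ± 7.70 CPM in bone marrow, against 22.0 ± 17.5 CPM in lung (SD, n = 4 each). THBS1, the matrix protein thrombospondin-1, was at 2.21 ± 0.365 CPM in bone marrow, against 2.58 ± 1.24 CPM in lung, with 2.07 CPM in primary, and overlaps FSIP1 on the other strand, which was at 2.48 CPM, so that reads of the pair cannot be told apart if strand was not used. NRG1, a growth factor for ERBB receptors, was at 11.4 ± 6.99 CPM in bone marrow libraries, and its lung libraries were at 3.92 to 21.4 CPM. NR2F1, an orphan nuclear receptor, was at 0.0695 to 7.49 CPM in bone marrow, 0.679 to 12.1 CPM in lung and 0.921 CPM in primary. CD44, the hyaluronan receptor, was at 4.89 CPM in bone marrow replicate 4 and at most 0.278 CPM in the other bone marrow libraries, with 0.339 to 7.45 CPM in lung and 0.0767 CPM in primary. TAGLN, the smooth muscle protein transgelin, was at 0.549 CPM or less in every library and was not tested.

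The transition genes held the 2 smallest unadjusted p-values between sites among the 36 tested genes, those of ZEB1 (0.00205) and TWIST1 (0.00497). Their factors did not share a direction: of the 5 tested factors, ZEB1 and ZEB2 had fitted differences above 0 and TWIST1, SNAI1 and SNAI2 below 0. ZEB1, the zinc-finger homeobox repressor (chromosome 10, 31318495 to 31529814, plus strand), had 21.0, 20.6, 8.83 and 9.84 CPM in bone marrow libraries, 2.88, 2.61, 2.48 and 4.14 CPM in lung libraries, against 7.52 CPM in the primary library. The sites did not overlap, and the primary library lay between them. The log2 fold change of bone marrow over lung was 2.31 ± 0.54 (SE), at an edgeR adjusted p of 0.326, a DESeq2 adjusted p of 0.00028 and a limma voom adjusted p of 0.213, and it stayed between 2.12 and 2.50 with any 1 library left out. Against primary it was -0.15 ± 0.76 (edgeR adjusted p = 1.00).

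RefSeq promoter windows on GRCh38.p14 were matched for 28 of the 42 genes, in 40 windows, and the 250 bases before each start were searched on both strands. The other 14 genes, among them CDH1, TWIST1 and COL1A2, had no window and were not searched. ZEB1 and other factors of its kind bind the E-box CAGGTG, whose reverse complement is CACCTG, a motif chosen after the values were seen. Of the 28 genes, 1 had it in any window, ZEB1, where 17.5% of all 34943 windows had it, and 2 of the 40 windows did. ZEB1 is shown because it had the smallest p between sites, in the 1 of its 7 windows with the motif at 2 places (chr10:31318966-31319215, plus strand, motif in capitals).
ZEB1: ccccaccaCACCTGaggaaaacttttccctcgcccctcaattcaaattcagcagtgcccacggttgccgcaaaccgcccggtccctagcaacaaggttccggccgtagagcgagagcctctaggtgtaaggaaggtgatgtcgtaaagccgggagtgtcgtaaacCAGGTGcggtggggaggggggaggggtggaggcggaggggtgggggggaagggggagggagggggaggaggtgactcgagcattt
The core of the ETS site, GGAA or its reverse complement TTCC, was in 27 of the 28 genes and in 38 of the 40 windows (95%), against 92.7% of all windows, with a median of 3 per window in both. The windows of NT5E (chr6:85449833-85450082, plus strand) and TNC (chr9:115118158-115118407, minus strand), fusion-repressed genes that were highest in the primary library, held 2 and 8 of them (in capitals).
NT5E: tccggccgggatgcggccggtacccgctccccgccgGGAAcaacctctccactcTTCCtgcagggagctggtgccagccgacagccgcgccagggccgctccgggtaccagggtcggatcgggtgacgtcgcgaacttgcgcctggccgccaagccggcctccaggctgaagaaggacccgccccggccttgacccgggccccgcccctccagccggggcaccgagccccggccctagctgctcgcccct
TNC: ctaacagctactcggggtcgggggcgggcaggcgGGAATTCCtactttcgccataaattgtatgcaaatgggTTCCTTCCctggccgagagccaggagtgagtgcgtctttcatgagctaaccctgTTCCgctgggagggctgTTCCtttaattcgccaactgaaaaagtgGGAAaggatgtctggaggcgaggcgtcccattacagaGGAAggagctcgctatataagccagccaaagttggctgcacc
A match describes letters in a window and not binding. The starts of the ZEB1, NT5E and TNC windows shown lie 721, 499 and 100 bases inside the genes as given by GENCODE. Another ZEB1 window, whose start lies 78 bases before the gene, held the E-box at 1 place. At these shares, the core did not set the genes apart from other promoters.

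TWIST1, a basic helix-loop-helix factor (chromosome 7, 19020991 to 19117672, minus strand), differed in the other direction. It had 76.6, 74.9, 54.8 and 68.7 CPM in bone marrow libraries, 130, 118, 154 and 101 CPM in lung libraries, against 147 CPM in the primary library. Every lung library was above every bone marrow library, and the primary library was within the lung range. The log2 fold change of bone marrow over lung was -0.87 ± 0.24, with an edgeR adjusted p of 0.355 and a DESeq2 adjusted p of 0.0109, and it stayed between -0.96 and -0.75 with any 1 library left out. SNAI2, another zinc-finger repressor, had 12.3, 0.305, 7.92 and 25.9 CPM in bone marrow libraries, 32.8, 109, 25.1 and 45.5 CPM in lung libraries and 90.9 CPM in primary. Lung replicate 3 alone fell within the bone marrow range (log2 fold change -2.19 ± 1.00, edgeR adjusted p = 0.486). SNAI1, its relative, ranged from 0.074 to 6.12 CPM in bone marrow and from 0.141 to 18.0 CPM in lung, with 0.307 CPM in primary. ZEB2 had 49.3, 83.0, 34.3 and 66.4 CPM in bone marrow libraries, against 25.3, 72.0, 12.9 and 1.74 CPM in lung libraries, with 65.1 CPM in primary, so that lung replicate 4 was lowest by far and the sites overlapped through lung replicate 2. The 5 tested factors and TWIST2 summed to 156 ± 30.9 CPM in bone marrow, 217 ± 61.1 CPM in lung, against 311 CPM in the primary library.

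Among the structural genes of the group, VIM, the intermediate filament protein vimentin (chromosome 10, 17228259 to 17237593, plus strand), was the most abundant, in CPM and per kilobase. It had 93.5, 114, 128 and 215 CPM in bone marrow libraries, 129, 247, 256 and 157 CPM in lung libraries, against 306 CPM in the primary library. The sites overlapped (log2 fold change -0.52 ± 0.34, edgeR adjusted p = 0.598) and primary was above all 8 (-0.89 ± 0.47, adjusted p = 1.00). FN1, fibronectin, had 6.88, 2.62, 0 and 0.782 CPM in bone marrow libraries, 0, 0, 0 and 4.65 CPM in lung libraries and 9.36 CPM in primary. The log2 fold changes were 1.13 ± 2.02 between sites and -2.43 ± 2.43 against primary (edgeR adjusted p 0.890 and 1.00). Without lung replicate 4 the value against primary was -5.94, and without any other single library it was -3.06 to -2.22. CDH2, N-cadherin, was among the steadiest genes, at 7.06 ± 1.16 CPM in bone marrow, 9.42 ± 1.05 CPM in lung and 7.98 CPM in primary. CDH1, E-cadherin, was at 0 to 1.48 CPM in bone marrow, 0.414 to 1.74 CPM in lung and 0.614 CPM in primary. Per kilobase of the longest GENCODE transcript, CDH2 averaged 1.90 CPM and CDH1 0.146 CPM over the 8 metastasis libraries, an order that held with median transcript lengths.

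The 7 collagen genes of the set were low in all libraries. Together they held 10.9, 24.1, 10.6 and 6.13 CPM in bone marrow libraries, 4.41, 10.7, 5.96 and 5.37 CPM in lung libraries and 15.9 CPM in primary. Collagens outside the set, 28 genes against 7, summed to 36.2 to 57.3 CPM in bone marrow, 24.9 to 43.7 CPM in lung and 75.0 CPM in primary. The 2 sums cover unlike numbers of genes and do not compare levels per gene. Among them COL5A2, another collagen V chain, had 22.8, 45, 9.24 and 17.5 CPM in bone marrow libraries, 14.8, 24.6, 9.36 and 4.72 CPM in lung libraries and 53.3 CPM in primary, and was named after its values were seen. Of the 8 tested matrix genes, 5 had a fitted difference above 0 and 3 below 0 in bone marrow relative to lung, with a median log2 fold change of 0.21, and 6 of the 8 were lower in metastases than in primary, with a median of -0.57.

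**Figure D3:**
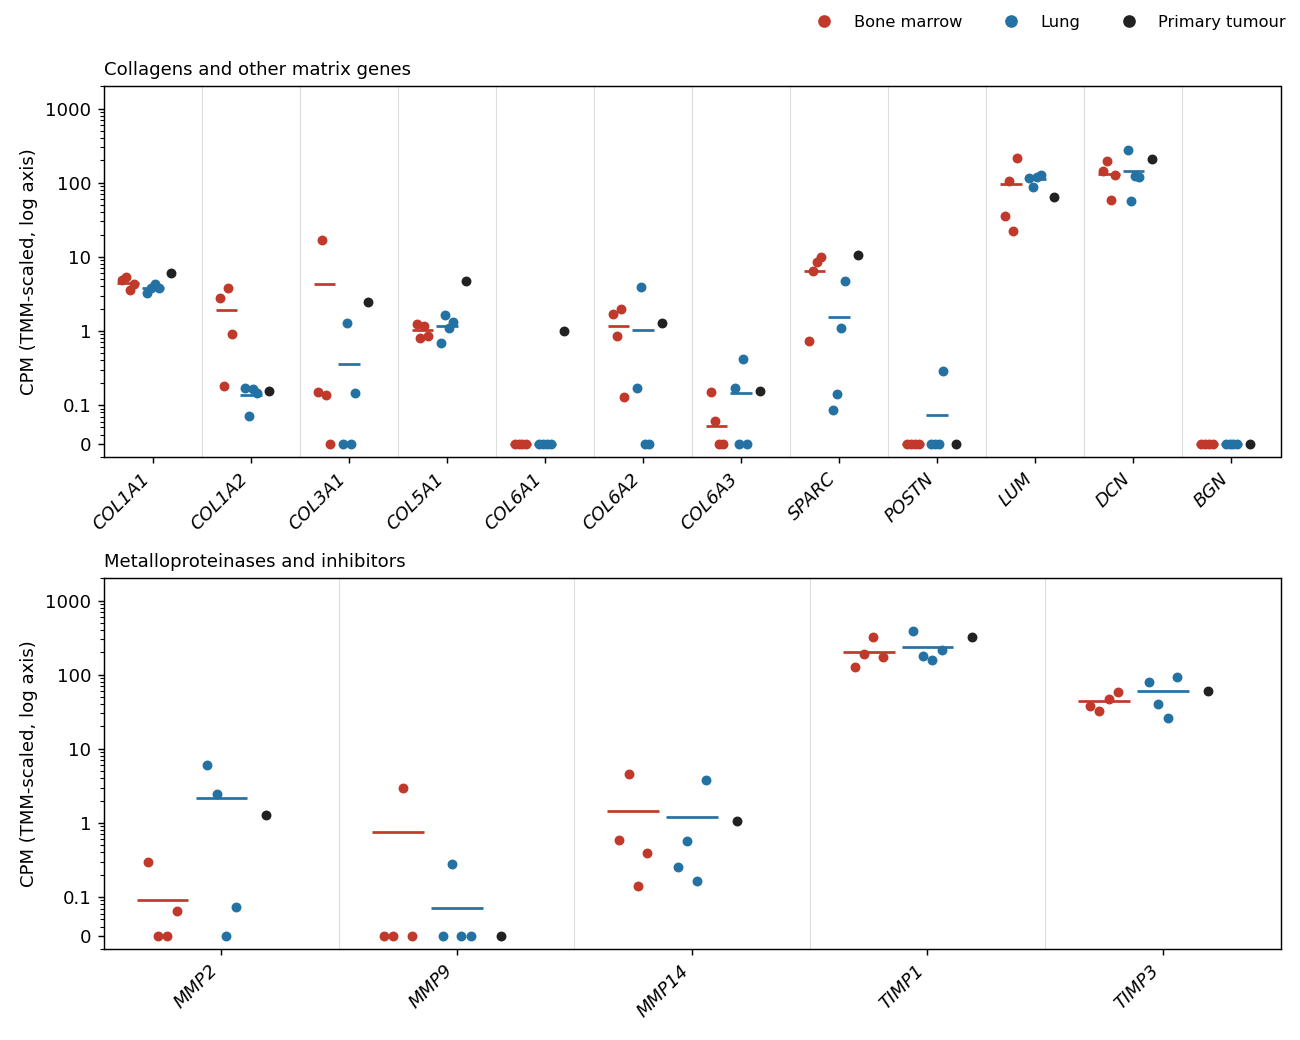
Level in CPM (TMM-scaled, log axis) of the 12 matrix genes (top) and the 5 metalloproteinase and inhibitor genes (bottom) in 4 bone marrow libraries (red), 4 lung libraries (blue) and the primary library (black). Points, lines and the mark 0 are libraries, means over 4 libraries and values at or below 0.03 CPM. LUM and DCN were at 22.4 CPM or more in every library, while BGN was at 0.

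COL1A1, the alpha 1 chain of collagen I (chromosome 17, 50183289 to 50201632, minus strand), had the smallest spread relative to its mean of the set's collagens detected in metastases. It had 4.81, 5.37, 3.54 and 4.24 CPM in bone marrow libraries, 3.22, 3.80, 4.31 and 3.78 CPM in lung libraries and 6.06 CPM in primary. The sites overlapped (log2 fold change 0.25 ± 0.48, edgeR adjusted p = 0.903), and the value against primary was -0.56 ± 0.69 (1.00). Its partner chain COL1A2 (chromosome 7, 94394561 to 94431232, plus strand) had 38, 3, 55 and 14 counts in bone marrow, 2, 1, 2 and 2 counts in lung and 2 counts in primary, or 2.81, 0.183, 3.82 and 0.912 CPM in bone marrow libraries, 0.170, 0.0704, 0.166 and 0.145 CPM in lung libraries and 0.153 CPM in primary. Every bone marrow library was above every lung library, but the nearest libraries of each site held 3 and 2 counts. The log2 fold change was 3.73 ± 1.03, with an edgeR adjusted p of 0.370 and a DESeq2 adjusted p of 0.0487. It had passed the filter through bone marrow replicates 1, 3 and 4 alone.

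COL5A1, a chain of the fibril-regulating collagen V (chromosome 9, 134641774 to 134844843, plus strand), had 1.26, 0.793, 1.18 and 0.847 CPM in bone marrow libraries, 0.679, 1.62, 1.08 and 1.31 CPM in lung libraries and 4.76 CPM in primary. The metastasis libraries were within a narrow range and the primary library was above them, at a log2 fold change of -2.11 ± 0.73 for metastases over primary with an unadjusted p of 0.0179 and an edgeR adjusted p of 0.925. Between sites it was at -0.20 ± 0.59 (0.941). COL3A1 was at 16.8 CPM in bone marrow replicate 2 and at 0 to 0.148 CPM in the other 3 bone marrow libraries, with 1.27 CPM in lung replicate 2, at most 0.145 CPM in the other lung libraries and 2.45 CPM in primary. Of the collagen VI chains, COL6A1 had 0 counts in all 8 metastasis libraries and 13 in primary, COL6A2 was at 0.13 to 1.95 CPM in bone marrow, 0 to 3.94 CPM in lung and 1.30 CPM in primary, and COL6A3 held at most 5 counts in any library. The 13 counts of COL6A1 were 0.997 CPM.

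SPARC, a collagen-binding glycoprotein (chromosome 5, 151661096 to 151687165, minus strand), had 0.740, 6.47, 8.48 and 10 CPM in bone marrow libraries, 0.0848, 0.141, 1.08 and 4.79 CPM in lung libraries and 10.5 CPM in primary. The sites overlapped through bone marrow replicate 1, with a log2 fold change of 2.07 ± 1.27 (edgeR adjusted p = 0.569), and the value against primary was -1.74 ± 1.57 (1.00), or -2.64 without lung replicate 4. POSTN, periostin, held 4 counts in lung replicate 4 and 0 in the other libraries.

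Of the 3 leucine-rich proteoglycans, DCN and LUM were more abundant per kilobase than COL1A1, and BGN was not detected. DCN, decorin (chromosome 12, 91140484 to 91183123, minus strand), had 142, 199, 59.2 and 126 CPM in bone marrow libraries, 276, 57.5, 122 and 121 CPM in lung libraries and 207 CPM in primary. The sites overlapped throughout (log2 fold change -0.13 ± 0.50, edgeR adjusted p = 0.953; against primary -0.59 ± 0.71, 1.00). LUM, lumican, whose gene lies beside DCN, had 35.9, 107, 22.4 and 217 CPM in bone marrow libraries, 117, 87.7, 119 and 128 CPM in lung libraries and 63.5 CPM in primary. Per kilobase of the longest transcript, over the 8 metastasis libraries, LUM averaged 34.7 CPM, DCN 19.3 CPM and COL1A1 0.614 CPM, and LUM and DCN stayed above COL1A1 with median transcript lengths, whereas the order of LUM and DCN did not hold. Beside these genes, 10 fibroblast markers, of which COL1A1, COL3A1, LUM, DCN and POSTN are also members, summed to 107 to 368 CPM in bone marrow, 163 to 403 CPM in lung and 303 CPM in primary. Among the markers that are not members, PDGFRA was at 0.767 to 2.29 CPM, PDGFRB at 0 to 2.5 CPM and ACTA2 at 0 to 7.63 CPM over the libraries. The other markers that are not members, THY1 and FAP, are in the sums, but their levels are not given here. The low levels of PDGFRA, PDGFRB and ACTA2 therefore do not describe the whole list. The part of the fibroblast markers in the matrix levels was not tested. KERA and EPYC, the 2 other proteoglycan genes of the same cluster, chosen after their values were seen, were at 0.166 CPM or less in every library.

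Among the proteases and inhibitors, the inhibitors were abundant and the metalloproteinases were not. TIMP1, an inhibitor of several metalloproteinases (chromosome X, 47582313 to 47586789, plus strand), had 126, 188, 318 and 174 CPM in bone marrow libraries, 387, 179, 160 and 215 CPM in lung libraries and 325 CPM in primary. The sites overlapped (log2 fold change -0.22 ± 0.37, edgeR adjusted p = 0.877; against primary -0.58 ± 0.53, 1.00). TIMP3, which stays bound to the matrix, averaged 43.9 ± 11.3 CPM in bone marrow, against 59.9 ± 32.0 CPM in lung, with 60.1 CPM in primary. MMP2, MMP9 and MMP14 together held 0.456 to 4.64 CPM in bone marrow, against 0.166 to 6.28 CPM in lung, and TIMP1 and TIMP3 together 164 to 365 CPM in bone marrow, against 185 to 467 CPM in lung. Per kilobase of the longest transcript, over the 8 metastasis libraries, TIMP1 averaged 199 CPM and TIMP3 11.3 CPM, while MMP2, MMP9 and MMP14 averaged 0.298, 0.175 and 0.352 CPM.

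MMP2, the gelatinase A (chromosome 16, 55389700 to 55506691, plus strand), had 4, 0, 0 and 1 counts in bone marrow, 71, 35, 0 and 1 counts in lung and 17 counts in primary. Its high libraries were lung replicates 1 and 2, and lung replicates 3 and 4 were within the bone marrow range. The log2 fold change was -4.47 ± 1.89 with an unadjusted edgeR p of 0.0426 and an edgeR adjusted p of 0.486. It ran between -6.12 without bone marrow replicate 1 and -3.13 without lung replicate 1. Bone marrow had 0.0406 times the summed lung level (exact 95% counting interval 0.0129 to 0.0978). MMP2 had passed the filter through lung replicates 1 and 2 and the primary library alone. MMP9, the gelatinase B, was at 2.99 CPM in bone marrow replicate 3, at 0.282 CPM in lung replicate 2 and at 0 in the other 7 libraries. MMP14, the membrane-bound enzyme that activates MMP2, was at 4.64 CPM in bone marrow replicate 2, at 3.78 CPM in lung replicate 4 and at 0.139 to 0.592 CPM in the other metastasis libraries, with 1.07 CPM in primary.

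**Figure D4:**
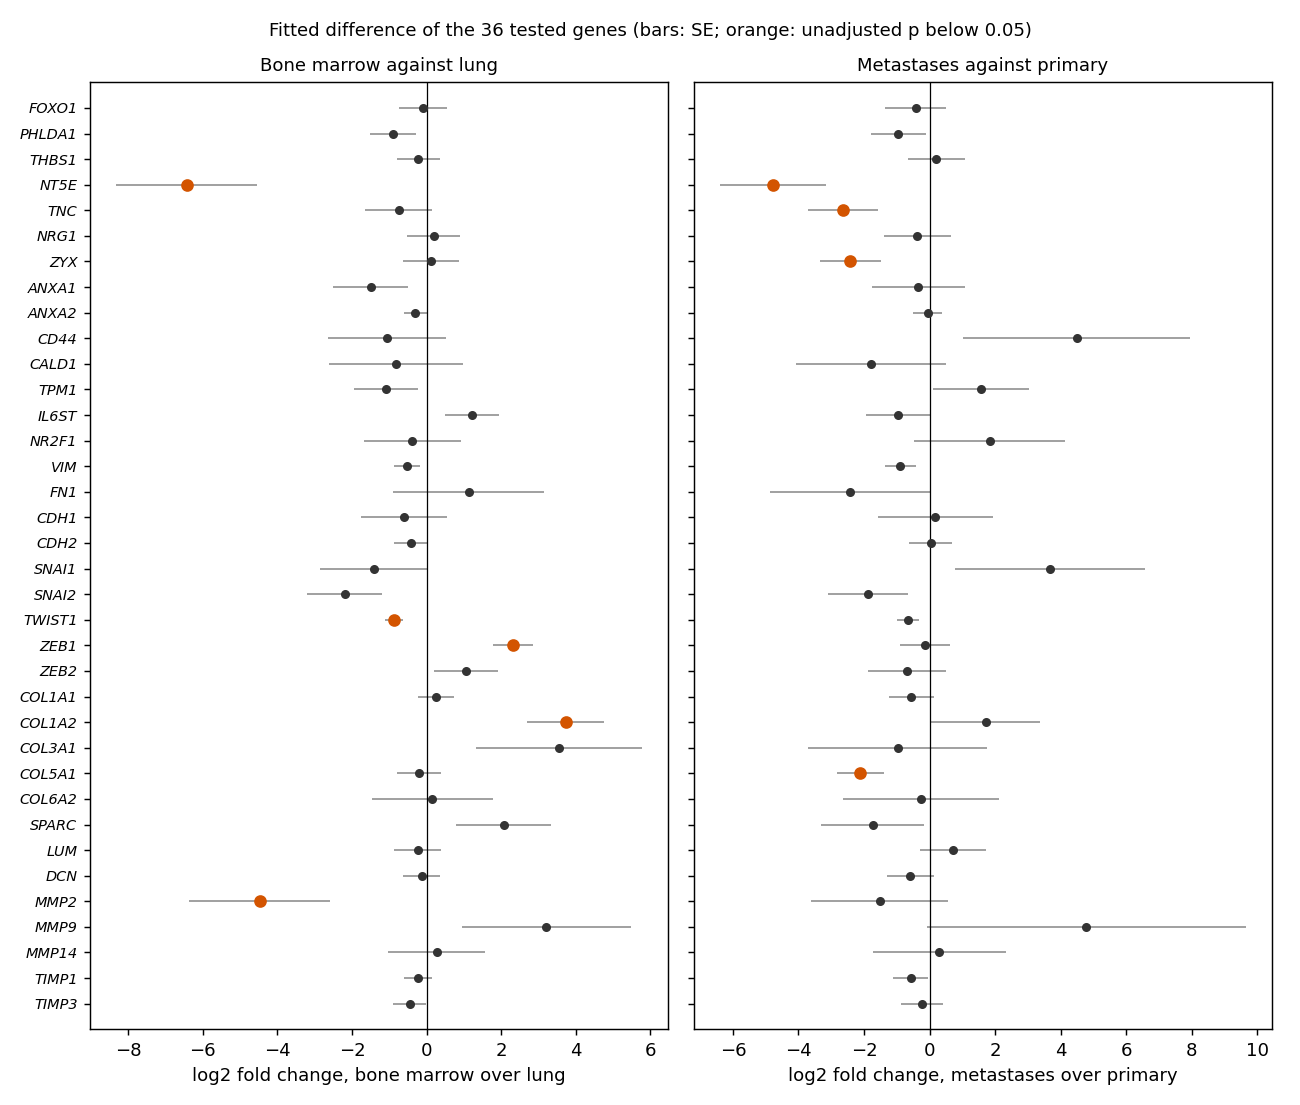
Fitted log2 fold change (horizontal axis) of the 36 tested genes for bone marrow over lung (left) and metastases over primary (right), with bars of 1 standard error. Orange points had an unadjusted edgeR p below 0.05, 5 genes on the left and 4 on the right, and none passed the adjusted threshold.

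Some of the genes differed widely among the metastasis libraries. Of 16 tested members with a mean of at least 10 CPM over the 8 metastasis libraries, 6 had a highest level at least 20-fold above the lowest (37.5%), against 15.5% of 7278 tested genes with such a mean. They were ANXA1 (417-fold), SNAI2 (357-fold), CALD1 (at least 107-fold, with libraries at 0 set to 0.254 CPM), TPM1 (84.0-fold), ZEB2 (47.6-fold) and IL6ST (22.1-fold). The low libraries differed from gene to gene: bone marrow replicate 1 for ANXA1, replicate 2 for SNAI2, replicate 3 for TPM1, lung replicate 3 for IL6ST and lung replicate 4 for ZEB2. VIM (2.74-fold), ANXA2 (2.77-fold), TWIST1 (2.81-fold) and TIMP1 (3.07-fold) varied least of the 16. Input per library was low, and whether molecules lost during preparation gave levels near 0 was not tested.

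Lists of related genes were set beside these. Of 7 tested further fusion-repressed genes, 5 were lower and 2 higher in bone marrow relative to lung (median log2 fold change -0.71), none called by edgeR and LOX and TGFBR2 called by DESeq2, which called 3.38% of all genes. Against primary, 4 of these 7 were higher in metastases and 3 lower (median 0.0). LOX, the collagen cross-linking enzyme, had 14.1, 12.5, 16.4 and 16.7 CPM in bone marrow libraries, against 0.424, 5.70, 1.41 and 0.799 CPM in lung libraries, with 31.5 CPM in primary. TGFBR2, a receptor of transforming growth factor beta, had 0.518, 1.34, 0.208 and 0.717 CPM in bone marrow libraries, against 0.933, 22.0, 4.22 and 4.43 CPM in lung libraries, with 21.6 CPM in primary. LOX was above all lung libraries in each bone marrow library, and TGFBR2 overlapped through lung replicate 1. The 18 tested fusion-activated genes divided into 10 higher and 8 lower in bone marrow, with a median of 0.07 and 0 at an unadjusted edgeR p below 0.05 (against 10.2% of all tested genes), and against primary 7 were higher and 11 lower (median -0.24). Of these, NPY1R, a neuropeptide Y receptor, was at 35.8 to 88.8 CPM in the metastasis libraries and 4.76 CPM in primary, with a DESeq2 adjusted p of 0.000368 and an edgeR adjusted p of 0.534.

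Of 20 tested collagen-processing genes, 14 were higher and 6 lower in bone marrow relative to lung, with a median log2 fold change of 0.60, none called by edgeR and LOX again the 1 called by DESeq2. P4HA1, a prolyl hydroxylase of collagen, averaged 210 ± 87.2 CPM in bone marrow, against 106 ± 28.6 CPM in lung (log2 fold change 0.99 ± 0.36, edgeR adjusted p = 0.468). Of 16 tested other collagens, 7 were higher and 9 lower in bone marrow (median -0.06), and of 19 tested other matrix proteins 9 were higher and 10 lower (median -0.41). In this last list THBS2, thrombospondin-2, had 2.96, 24.0, 1.04 and 13.7 CPM in bone marrow libraries, against 0.254, 0.422, 0.414 and 0 CPM in lung libraries, with 2.99 CPM in primary and a DESeq2 adjusted p of 0.000541 (edgeR 0.350). Of 13 tested actin cytoskeleton genes 6 were higher and 7 lower in bone marrow (median -0.06), and of 16 tested other proteases and inhibitors 9 were higher and 7 lower (median 0.16), with no call by either tool. Against primary, 2 of the 13 actin cytoskeleton genes were higher in metastases and 11 lower (median -1.15). The primary library was above all 8 metastasis libraries for 5 of the 13, against 10.1% of all tested genes. In the other lists it was so for 2 of 7 further fusion-repressed genes, 2 of 18 fusion-activated genes and 3 of 16 other collagens. The same held for 3 of 20 collagen-processing genes, 3 of 19 other matrix proteins and 2 of 16 other proteases. The medians against primary were 0.06 for other collagens, -0.01 for collagen-processing genes, 0.22 for other matrix proteins and -0.18 for other proteases.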

How the data were processed

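The 9 RNA libraries of TC71 cells were prepared by template switching from low input, per the labels' protocols. The authors deposited estimated counts for each gene symbol, which need not be whole, and, in another table, the percent of reads by species and the fraction of reads by counting category of each library. Per the submitters' processing notes, Trim Galore, Salmon and the build hg38 were used, and no versions or strand setting are given in the sources used here. Estimated counts were rounded. Of 34934 rows, 12 name vector genes (at most 0.0133% of a library) and 92 name spike-ins (at most 0.0036%), and both were left out, while 28 rows with dates in place of symbols were kept. All 36 pairs of libraries differed beyond sampling noise (the smallest chi-square, divided by its degrees of freedom, was 79.9).

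Genes were filtered with edgeR's filterByExpr, here at least 0.757 CPM in at least 1 library and 15 counts in all, so that a gene high in 1 library could pass. All 9 libraries entered 1 edgeR 4.0.16 quasi-likelihood fit with 3 groups and TMM scaling, and calls were made, two-sided, below 0.05 after Benjamini-Hochberg adjustment over all tested genes. DESeq2 1.42.0 and limma 3.58.1 (voom with quality weights) were run as alternatives under R 4.3.3. Fold changes are bone marrow over lung or metastases over primary. Standard errors were derived from the test statistic. The primary comparison assumes that 1 library varies as the metastasis libraries do. The step was tested on simulated counts. Transcript lengths are from GENCODE 29. Counting intervals cover counting error only.

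The 42 genes, the other lists and the markers were chosen with earlier results of these data known. Values of each library and full statistics were given to genes whose sites did not overlap, whose primary library lay beyond all others, that had an unadjusted p below 0.05 or a DESeq2 or voom call, or that had the highest mean of their group. Some genes outside these rules, such as ANXA1, SNAI2, ZEB2 and LUM, were also given values of each library, and SNAI2 a fold change between sites. Of the other lists, up to 4 genes with the smallest p per comparison could be named. The other alternatives were other scalings and filters, a fit without the primary library, leaving out single metastasis libraries, and a block for the replicate number.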

Additional observations from a re-analysis of the deposited data

Results flagged for a closer look

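In 72 sets of 4 libraries of 1 site, each for 1 tested gene, the highest library stood apart from the other 3 by Dixon's test in 11. Chance flags about 1 in 20 sets of continuous values, but in 4 of the 11 (NT5E and MMP9 in bone marrow, FN1 and MMP9 in lung) the other 3 libraries were at 0, where any single count is picked out, so the number of sets is not set against that rate. In bone marrow these were NT5E at 0.074 CPM in replicate 1 (a single count, with 0 in the others), CD44 at 4.89 CPM in replicate 4, COL3A1 at 16.8 CPM in replicate 2, MMP9 at 2.99 CPM in replicate 3 and MMP14 at 4.64 CPM in replicate 2. In lung they were NR2F1 at 12.1 CPM in replicate 3, FN1 at 4.65 CPM in replicate 4, COL3A1 at 1.27 CPM in replicate 2, COL6A2 at 3.94 CPM in replicate 2, MMP9 at 0.282 CPM in replicate 2 and MMP14 at 3.78 CPM in replicate 4. The other 3 libraries of each of these sets were at 1.45 CPM or less. Lung replicate 2 held 3 of the 11, bone marrow replicate 2 and lung replicate 4 held 2 each, and bone marrow replicates 1, 3 and 4 and lung replicate 3 held 1 each. The high libraries ranged between 1 count (NT5E) and 276 counts (COL3A1 in bone marrow), MMP9 had passed the filter through bone marrow replicate 3 alone, and the cause was not tested.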

How the results depend on the processing

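For bone marrow against lung, the count of genes called over all genes was 1 with edgeR, 3 when 5 CPM were required in 4 libraries, 468 with DESeq2 (299 higher and 169 lower), 6 with limma voom, 0 with the replicate number as a block, and 0 with any 1 library left out; of the 36 tested members DESeq2 called 4 and every other setting 0. The median log2 fold change of the tested members was -0.23, -0.41 under the stricter filter, which left 21 of them, and -0.35 to -0.20 with any 1 library left out, the lowest without bone marrow replicate 2 or lung replicate 1. The same numbers did not pair the samples, with correlations of deviations of -0.00948, 0.0369, -0.0557 and -0.0363, and with the block the median was -0.19. For metastases against primary, 0 genes were called with edgeR, 97 with DESeq2 (78 higher and 19 lower) and 48 with limma voom (all lower), and the median of the tested members was -0.49, -0.71 with limma voom, where the median of all genes moved from 0.17 to -0.10, and -0.64 to -0.49 with any 1 library left out. Of 333 recomputed values of 23 named results, 326 kept their direction and side of the threshold. DESeq2 moved COL1A2 (3.81), NT5E (-6.79), TWIST1 (-0.87) and ZEB1 (2.31) past it, and 3 reversed: DCN between sites without bone marrow replicate 3 (0.11) or lung replicate 1 (0.41), over a range of -0.40 to 0.41, and TIMP1 without lung replicate 1 (0.14), over -0.53 to 0.14. The cause was not tested. Depth limits genes near 3 counts, and the primary library has no replicate.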
